A study of Arabidopsis thaliana with 2 samples.

Results

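LRX8 (AT3G19020), LRX9 (AT1G49490), LRX10 (AT2G15880) and LRX11 (AT4G33970) are the pollen leucine-rich repeat extensins of Arabidopsis thaliana. They were chosen by gene identifier, and 4 of 4 were found among the 33557 genes of the deposited table. The libraries came from semi-in-vivo pollen tubes, which germinate on a cut pistil and then grow out of its style onto solid medium. Wild type (WT) gave 1 library, and the double mutant, whose genotype label is drop1- drop2- (drop), gave the other. In each, tubes of 2 stigmas were pooled and carried through Smart-seq2 on polyadenylated RNA. The stigmas had been emasculated for 36 hours and pollinated with 500 to 600 grains, and tubes were cut at 300 to 400 µm outside the style. The treatment text mentions mutant grains for both samples, so each genotype rests on its genotype label, and no check of the mutated genes' own transcripts was made. With 1 library per genotype there was no replicate error and no test across samples, so "higher" and "lower" describe these 2 libraries.

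An LRX protein is secreted into the cell wall. Its amino-terminal part carries leucine-rich repeats that bind RALF peptides, and its carboxy-terminal extensin part is rich in serine followed by prolines, which are hydroxylated and glycosylated and anchor the protein in the wall. In the pollen tube the pollen LRX proteins act redundantly in wall integrity. They share the ligands RALF4 and RALF19 with the receptor kinases ANX1, ANX2, BUPS1 and BUPS2 and their LLG co-receptors.

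The extensin part could be read directly from the genes. Each coding sequence was searched for a TCN serine codon followed by at least 3 CCN proline codons. LRX8 held 25 such runs, LRX9 15, LRX10 25 and LRX11 17. Of 27415 genes with an annotated coding sequence on the nuclear chromosomes, 2.26% held at least 1 run and 25 genes held 15 or more. The sequences below are the 120 coding bases in which such runs are densest in each gene, with the runs in capitals. In LRX8 the stretch ends at codon 685, inside the run of codons 683 to 688. They are shown 5′ to 3′ on the coding strand, read from the RefSeq TAIR10.1 genome, and all are exonic coding sequence on the minus strand. The stretches lie at chr3:6559990-6560109 for LRX8, chr1:18318292-18318411 for LRX9, chr2:6918579-6918698 for LRX10 and chr4:16280203-16280322 for LRX11.
LRX8: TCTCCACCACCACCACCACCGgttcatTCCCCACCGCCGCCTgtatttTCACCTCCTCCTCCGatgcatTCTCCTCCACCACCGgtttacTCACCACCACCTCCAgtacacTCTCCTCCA
LRX9: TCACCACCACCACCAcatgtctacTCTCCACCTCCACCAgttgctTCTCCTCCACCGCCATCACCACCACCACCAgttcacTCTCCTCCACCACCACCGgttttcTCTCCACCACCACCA
LRX10: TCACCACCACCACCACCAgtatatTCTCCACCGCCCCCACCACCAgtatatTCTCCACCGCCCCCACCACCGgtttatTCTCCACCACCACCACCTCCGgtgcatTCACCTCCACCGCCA
LRX11: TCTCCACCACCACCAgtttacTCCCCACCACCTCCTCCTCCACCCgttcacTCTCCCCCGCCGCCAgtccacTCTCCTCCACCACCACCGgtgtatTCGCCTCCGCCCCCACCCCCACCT

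Runs with 4 proline codons were the most frequent in each gene, 19 of 25 in LRX8, 13 of 15 in LRX9, 15 of 25 in LRX10 and 10 of 17 in LRX11. Longer runs occurred in each gene. LRX8 held 4 runs of 5 proline codons and 1 of 6, and LRX9 held 1 of 5. LRX10 held 4 runs of 5 and 4 of 6, and LRX11 1 of 5, 1 of 6 and 2 of 7. CCN codons made up between 35.2% (LRX9) and 50.2% (LRX10) of the codons from the first run to the stop. Upstream of the first run they made up between 9.89% (LRX10) and 16.1% (LRX8).

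The last run lay at the same place in each gene, starting 10 codons before the stop codon. In LRX8 it began at codon 947 and the run before it at codon 817, and in LRX9 these were codons 843 and 643. The distance was smaller in LRX10, with codons 718 and 687, and in LRX11, with 690 and 654. The last 60 coding bases of the genes are shown for that reason, with the run in capitals. They lie at chr3:6559174-6559233, chr1:18317563-18317622, chr2:6918039-6918098 and chr4:16279795-16279854 in TAIR10.1, in the order LRX8 to LRX11, on the minus strand.
LRX8: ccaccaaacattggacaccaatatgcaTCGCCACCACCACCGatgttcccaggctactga
LRX9: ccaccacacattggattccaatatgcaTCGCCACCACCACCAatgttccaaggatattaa
LRX10: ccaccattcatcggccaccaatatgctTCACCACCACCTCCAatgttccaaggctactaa
LRX11: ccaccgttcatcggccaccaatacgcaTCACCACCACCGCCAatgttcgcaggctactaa

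**Figure D1:**
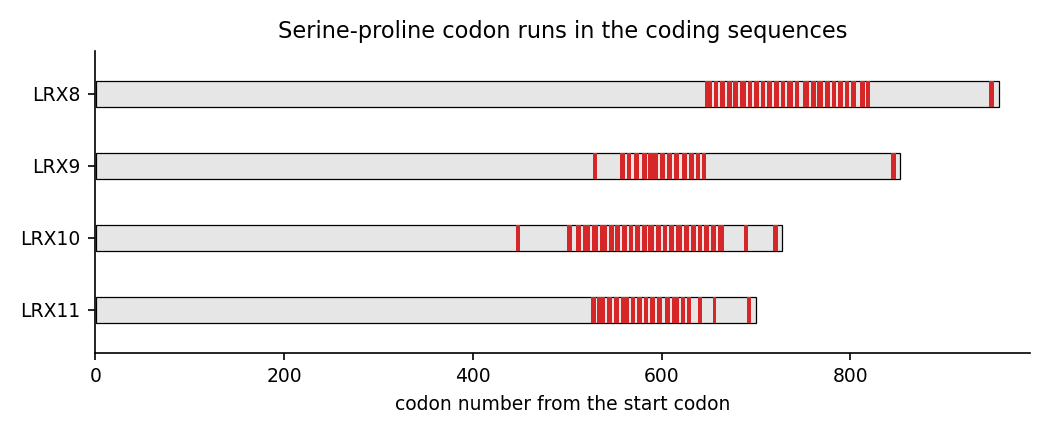
Map of the 4 coding sequences (grey), drawn to scale in codons from the start codon on the x axis, with each run of a TCN codon and at least 3 CCN codons in red. Runs lie in the 3′ part of each gene, and 1 run starts 10 codons before each stop codon.

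The genes differ in length. The coding sequence has 957 codons with the stop in LRX8, 853 in LRX9, 728 in LRX10 and 700 in LRX11, and the longest annotated transcripts have 3414, 2952, 2709 and 3108 bases. LRX10 is annotated with 2 exons, and the longest transcripts of the others with 1. Upstream of the first run, LRX10 and LRX11 were the closest pair, with 81.1% identical bases over 1313 aligned, and LRX8 and LRX9 the next, with 76.7% over 1578. The least alike were LRX9 and LRX10, at 67.5%.

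Despite this likeness, stretches of 50 bases were enough to tell the members from each other. Of the 50-base words in the LRX8, LRX9 and LRX10 transcripts, 0 of 3365, 0 of 2903 and 0 of 2660 occurred in a transcript of another gene. In LRX11, 358 of 3059 did (11.7%), all in AT4G03355. That non-coding RNA gene of the RefSeq annotation lies on the opposite strand, shares 405 exonic bases with LRX11 and is not among the rows used here. Nothing states that fragments were counted by strand, so fragments of AT4G03355 could count towards LRX11.

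All 4 pollen LRX genes were abundantly expressed in both libraries, and all were higher in drop as deposited. Levels are FPKM, by definition a fragment number divided by transcript length and by the mapped fragments of the library. Genes of a library can be compared as far as the lengths used hold, and any later scaling was not given. Intervals given with them are 95% exact Poisson intervals from an estimated number of fragments, and cover counting error only, since no molecular identifiers mark PCR copies of a molecule.

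LRX8 was the highest member in both libraries, at 499 FPKM (490.4 to 508) in WT and 2285 (2260 to 2311) in drop. Its fold of 4.58 (drop over WT) had an exact binomial counting interval of 4.49 to 4.67. It ranked 218th in WT and 153rd in drop among the 15150 and 12942 genes above 0, and about 12734 and 31466 fragments lay behind its values. The other members ranked 260th to 263rd in WT and 170th to 200th in drop, so all 4 were among the highest transcripts of both libraries.

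LRX9 was at 373 FPKM (365 to 381) in WT and 1639 (1616 to 1662) in drop, a fold of 4.39 (4.28 to 4.51). LRX10 was at 376 FPKM (367 to 384) in WT and 1378.5 (1357 to 1401) in drop, a fold of 3.67 (3.57 to 3.77). LRX11 was at 372 FPKM (364 to 379.8) in WT and 1928 (1904 to 1953) in drop, a fold of 5.19 (5.06 to 5.32). LRX9, LRX10 and LRX11 therefore stood level in WT, with overlapping intervals, and were spread out in drop, where LRX11 was highest of the 3 and LRX10 lowest. Together the 4 genes held 1620 FPKM in WT and 7231 in drop, a fold of 4.46.

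**Figure D2:**
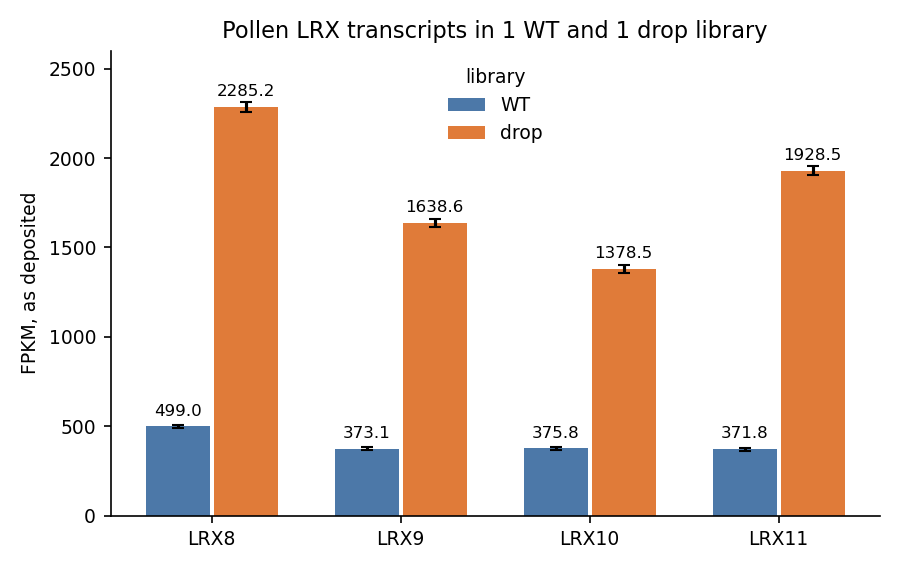
FPKM of the 4 genes (y axis, from 0) in the WT library (blue) and the drop library (orange), with 95% Poisson intervals of the estimated fragments as error bars. WT values of LRX9, LRX10 and LRX11 lie between 372 and 376, and the drop values spread from 1378.5 (LRX10) to 2285 (LRX8).

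The size of this difference depends on how the libraries are scaled. Deposited FPKM over all genes summed to 2.82 times as much in drop as in WT, so genes of high level were higher in drop as a rule. Of 3633 genes that reached 10 FPKM in WT, drop or both, 45.4% were at least 2-fold higher in drop on the scale of log2((drop FPKM + 1)/(WT FPKM + 1)), which understates the ratio of low genes. The 4 members passed the same rule, with a median log2 ratio of 2.16 against 0.81 over the 3633 genes. Of these genes 13.4% had a higher log2 ratio than LRX8, 14.8% than LRX9, 20.6% than LRX10 and 10.2% than LRX11.

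Genes of like level were closer to them. Among 482 genes that reached 100 FPKM in WT and in drop, a set chosen after the values were seen, the median of log2(drop/WT) was 1.70 and 74.5% were at least 2-fold higher. Among these, 14.7% had a higher ratio than LRX11 and 37.8% than LRX10. In the 58 of them with transcripts of 2 to 3.5 kb, the length range of the members, the median was 1.98, and 8 genes lay above LRX11 while 33 lay above LRX10, so LRX10 was below the middle of that set. What level and length contribute to the members' ratios was not tested.

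At equal sums of the libraries, 0 of the 4 genes were 2-fold higher in drop, beside 8.86% of the 3633 genes. LRX11 then stood at 1.84 times its WT level, LRX8 at 1.62, LRX9 at 1.56 and LRX10 at 1.30. With drop scaled so that the genes reaching 10 FPKM in both had a median ratio of 1, the folds were 2.41, 2.13, 2.04 and 1.70 in that order, and 3 of 4 were 2-fold higher, beside 15.9%. After quantile normalization 1 of 4 was, LRX11, beside 35.2%. Each of the 4 was higher in drop under each of the 5 scalings, the deposited values included, and LRX11 had the highest and LRX10 the lowest ratio under each. The log2 ratio of each also stayed above the median of the 3633 genes.

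**Figure D3:**
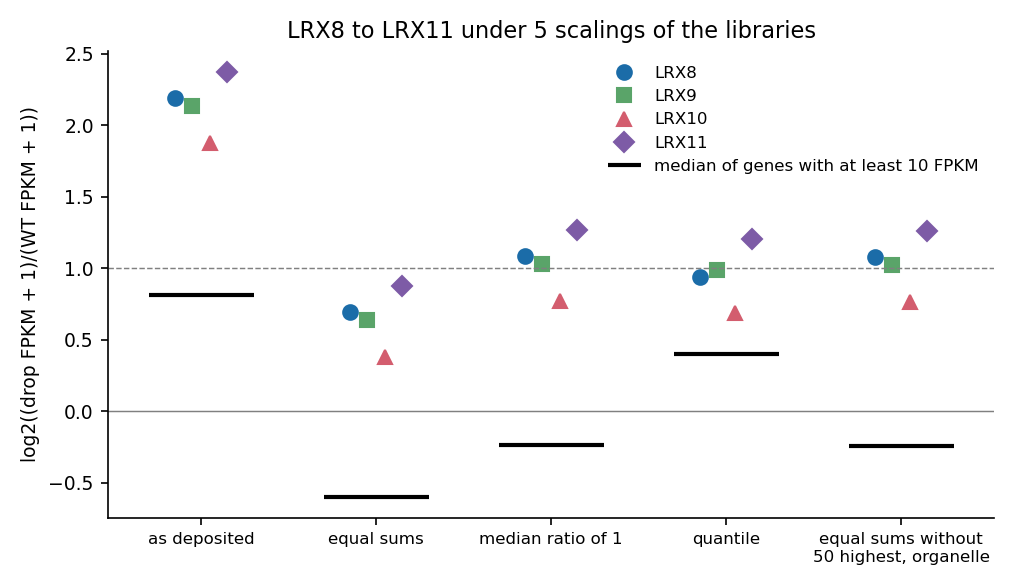
Log2 ratio of drop over WT (y axis, with 1 added to each FPKM) of LRX8 to LRX11 under 5 scalings of the libraries (x axis), with the median of 3633 genes as black bars and a dashed line at 2-fold. All points lie above 0 and above the bar, and 0 of 4 pass 2-fold at equal sums.

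The balance among the members is the same under any scaling by a single factor. As a share of the summed FPKM of the 4 genes, LRX8 held 30.8% in WT and 31.6% in drop, and LRX9 23.0% and 22.7%. These shares differed by less than 1 percentage point between the libraries. LRX10 held 23.2% in WT and 19.1% in drop, and LRX11 23.0% and 26.7%.

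The closest relatives in sequence, LRX10 and LRX11, thus differed most between the libraries. LRX11 was at 0.989 times LRX10 in WT (exact binomial counting interval 0.959 to 1.02) and at 1.40 times in drop (1.37 to 1.43). Among the 6 pairs of members, counting intervals of the WT and drop ratio did not overlap for 5, and overlapped for LRX9 over LRX8, at 0.748 (0.727 to 0.769) and 0.717 (0.704 to 0.730). In WT the interval held 1 for 3 of the 6 pairs, those among LRX9, LRX10 and LRX11, and in drop for 0. With 7610 or more estimated fragments behind each value these intervals are narrow. Pairs of other genes were not counted, so these counts do not set the members apart from other abundant genes. The intervals hold no spread between plants or preparations, which 1 library per genotype does not show. Fragments of AT4G03355 could count towards LRX11, as said above, and their part in its ratios was not tested.

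The LRX genes of other organs were at or near 0. LRX1 and LRX2, which act in root hairs, and LRX4, LRX6 and LRX7 were listed at 0 in both libraries. LRX3, a gene of vegetative tissue, was at 0.332 FPKM in WT against 1.80 in drop, on about 8 and 22 fragments. LRX5 was at 0.0550 and 0.272 FPKM. All 7 together summed to 0.387 FPKM in WT and 2.07 in drop, against 1620 and 7231 for the pollen genes.

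Transcripts of the other cells of the sample differed between the libraries. Of 11 sperm markers 10 were measured (reaching 1 FPKM in WT or drop). Each of those 10 was 2-fold lower or more in drop, as deposited and at equal sums, beside 30.4% and 48.6% of 9880 measured genes. The list summed to 50955 FPKM in WT against 3363 in drop. Of 7 markers of green tissue, 6 were measured, with sums of 137.5 and 21.6 FPKM over the list. As deposited 5 of the 6 were lower by 2-fold or more, and at equal sums 6 of 6, beside the same shares of measured genes. The 6 vegetative tube markers were all measured and summed to 24760 and 65404 FPKM. As deposited 5 of them were 2-fold higher or more, and PRK2 was at 37.2 and 29.02 FPKM. All 6 reached 10 FPKM, and 45.4% of the genes that did were 2-fold higher, beside 26.4% of measured genes. Among genes at 100 FPKM in both libraries the share was 74.5%. At equal sums 0 of the 6 were 2-fold higher, beside 8.86% of genes reaching 10 FPKM and 4.39% of measured genes. PRK2 was then the 1 marker lower by 2-fold or more. Of 3 style and stigma markers 1 was measured, HAF (CES), at 43.8 FPKM in WT and 55.1 in drop. It made up most of the list sums of 45.0 and 56.0 FPKM. HAF did not pass 2-fold as deposited and was lower by 2-fold or more at equal sums, beside 48.6% of measured genes. The part of these shifts in the LRX values was not tested. In such pooled tubes, fewer cells of a type and less RNA per cell cannot be told apart.

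**Figure D4:**
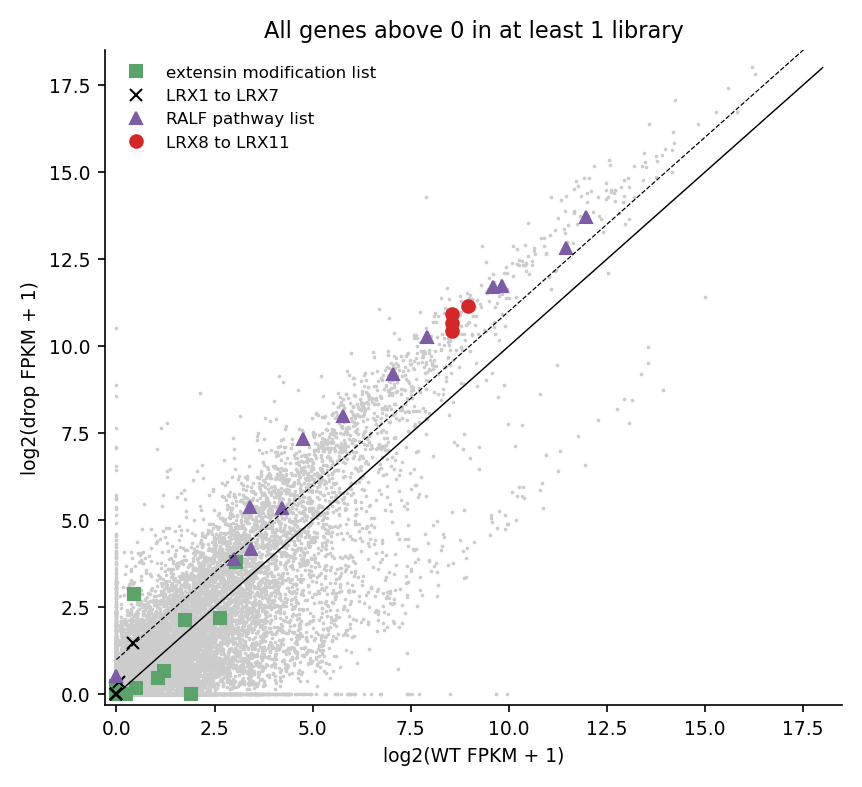
Log2(FPKM + 1) of all genes above 0 in at least 1 library (grey), in WT on the x axis and drop on the y axis, with a solid line at equal values and a dashed line at 2-fold. LRX8 to LRX11 (red) lie above the dashed line, as do the ligands and receptors of the RALF pathway list (purple), with ANX1 and BUPS2 at lower levels. RBOHH, RBOHJ and AUN2 of that list lie below the dashed line. LRX1 to LRX7 (crosses) and the extensin modification list (green) lie near the lower left.

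The RALF pathway in which the pollen LRX proteins act was described by a list of 13 genes. Of these 12 were measured, with 10 of them 2-fold or more higher in drop and 0 lower by as much. Over 9880 measured genes these shares were 26.4% and 30.4%. All 12 also reached 10 FPKM, and 45.4% of the 3633 genes that did were 2-fold or more higher. The median log2 ratio of the list was 1.94, against -0.07 over all measured genes and 0.81 over those 3633. At equal sums 1 of 12 (ANX1) was 2-fold higher, beside 4.39% of measured genes and 8.86% of the 3633. The median was then 0.47, against -0.96 over the measured genes and -0.60 over the 3633. The count as deposited thus depends on the scaling.

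The peptide ligands exceeded the LRX transcripts in WT and less so in drop. RALFL4 was at 2835 FPKM in WT against 7233 in drop, or 1.75 and 1.00 times the summed LRX genes. RALFL19 was at 3987 and 13392 FPKM, or 2.46 and 1.85 times that sum. Relative to the LRX sum, a comparison that no scaling by a single factor changes, drop thus held 0.572 times as much RALFL4 and 0.752 times as much RALFL19 as WT. Such values were not particular to the ligands. The vegetative tube markers ranged from 0.175 (PRK2) to 1.01 (TUB9) on this measure, with AGP11 at 0.570 and VGD1 at 0.754. The LRX sum itself had a log2 ratio of 2.16, above the median of 1.70 among genes at 100 FPKM in both libraries.

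On the same measure the receptor genes ranged from 0.940 to 1.38. ANX2 was at 132 FPKM in WT against 583 in drop, and 0.993 times its WT level relative to the LRX sum. BUPS1 was at 241 and 1231 FPKM, and 1.15 times on that measure, while its relative BUPS2 was much lower, at 9.62 and 40.4 FPKM, and 0.940 times. ANX1 was at 26.0 and 160.3 FPKM, and 1.38 times, the highest of the list. The GPI-anchored co-receptors LLG2, at 904 and 3421 FPKM, and LLG3, at 770.5 and 3353, stood at 0.848 and 0.975 times.

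Downstream of the receptors, the kinase gene MRI was at 53.8 FPKM in WT against 254 in drop, and 1.06 times relative to the LRX sum. The NADPH oxidase gene RBOHH was at 9.81 and 17.0 FPKM, the lowest of the list on that measure at 0.388 times, and RBOHJ was listed at 0 in WT and at 0.443 FPKM in drop. The type one protein phosphatase genes AUN1 (TOPP9) and AUN2 (TOPP8) were at 17.5 and 6.96 FPKM in WT and 39.7 and 13.8 in drop, or 0.507 and 0.445 times. ANX1, BUPS1 and MRI were thus above 1 on this measure, as were LRX8 at 1.03 and LRX11 at 1.16, and the 9 other measured genes of the list were below 1.

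**Figure D5:**
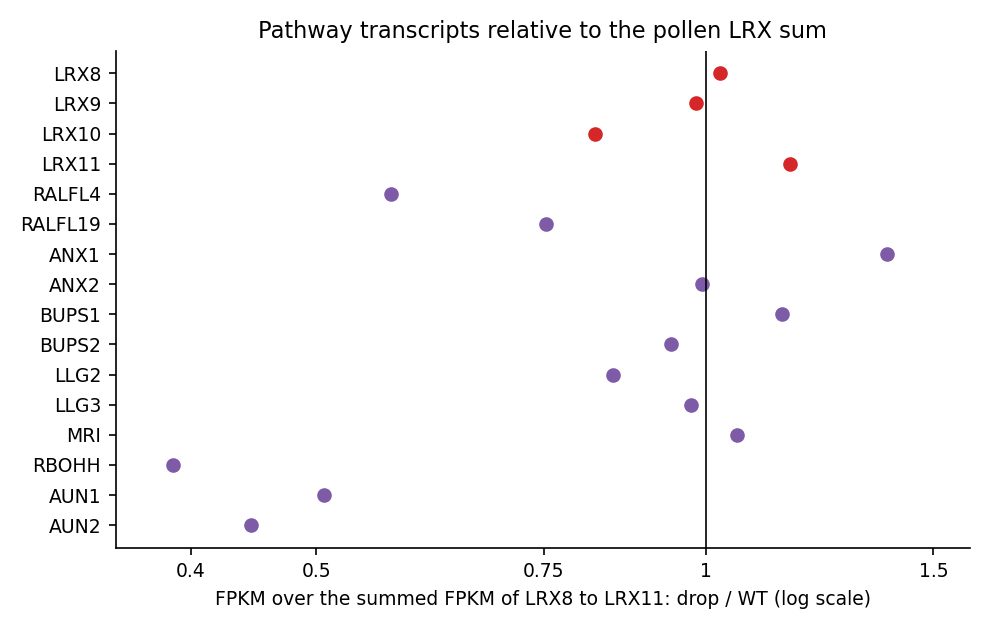
FPKM of each gene divided by the summed FPKM of LRX8 to LRX11, as the drop value over the WT value (x axis, log scale), for the LRX genes (red) and the 12 measured genes of the RALF pathway list (purple). Receptor genes lie between 0.940 (BUPS2) and 1.38 (ANX1), and the ligand RALFL4 lies at 0.572.

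The listed genes of enzymes that modify the prolines and serines of extensins were far lower than the LRX genes themselves. The list held 12 genes, of which 7 were measured and 1, the prolyl 4-hydroxylase gene P4H5, passed 10 FPKM, at 7.33 in WT and 13.04 in drop. Its prolyl 4-hydroxylase genes were P4H2, P4H5 and P4H13 only, and others were not looked up. P4H2 had 2.75 FPKM in WT and was listed at 0 in drop, and P4H13 was listed at 0 in both. Of the hydroxyproline arabinosyltransferase genes, HPAT1 was at 2.38 and 3.42 FPKM, HPAT3 at 1.07 and 0.396, and HPAT2 listed at 0 in both. The arabinosyltransferase gene RRA2 was at 5.23 and 3.53 FPKM, while RRA1 and RRA3 stayed below 1. EXAD was at 1.32 and 0.588 FPKM, and the serine galactosyltransferase gene SERGT1 had 0.189 in WT and was listed at 0 in drop. XEG113, a further arabinosyltransferase gene, was at 0.358 FPKM in WT against 6.40 in drop, on about 7 and 64 fragments.

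As deposited, 1 of the 7 measured genes passed 2-fold upwards in drop (XEG113) and 1 downwards (P4H2), beside 26.4% and 30.4% of measured genes, with a median log2 ratio of -0.46. At equal sums 1 passed upwards and 2 downwards, beside 4.39% and 48.6%. HPAT3 and EXAD, at 0.371 and 0.446 times their WT FPKM, do not pass as deposited because 1 is added to each value. The median as deposited is below the 1.94 of the RALF pathway list and the 2.16 of the pollen LRX genes, which are lists of higher level. It rests on few fragments. Over all measured genes the median was -0.07 as deposited and -0.96 at equal sums, where this list stood at -0.86.

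By level in both libraries, the named gene nearest to LRX8 was RABB1C (a RAB GTPase), at 478 FPKM in WT against 2139 in drop, a distance of 0.11 on the log2(FPKM + 1) scale over the 2 libraries. PLIM2b, a LIM protein gene, was nearest to LRX10, at 369 and 1434 FPKM and a distance of 0.062, and also to LRX9, at 0.19. INT4, an inositol transporter gene, was nearest to LRX11, at 342 and 2129 FPKM and a distance of 0.19, followed by COBL10, a COBRA-like gene, at 423 and 1891. The nearest other member was LRX11 for both LRX8 and LRX9, at 0.49 and 0.23. For each of the 4 a gene outside the family lay closer than any other member. Far more named genes than members were compared, so this says little about how alike the members are.

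Upstream sequence was compared for 3 short motifs on both strands of the 250 bases before each annotated gene start. AGAAA and GTGA, motifs described in pollen promoters, occurred in all 4 windows, and in 82.5% and 77.5% of 27443 protein-coding genes. The core of a MEF2-type box, bound by pollen MADS proteins and read as CTA, any 4 bases and TAG, occurred in LRX9 and LRX10 and in 5.80% of those genes. The matches start 58 and 97 bases before the annotated starts, and are shown in capitals with 10 bases on either side, from chr1:18320249-18320278 and chr2:6920397-6920426 of TAIR10.1, minus strand. The annotation of LRX10 has no leader before its start codon, so its window may not be promoter sequence, and a match is not evidence of binding.
LRX9: tttacatcttCTAATTATAGtctcaaaaaa
LRX10: caagagttttCTAAATATAGggaaaagatt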

How the data were processed

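RNA was measured in 1 WT and 1 drop library of pollen tubes, each from tubes of 2 stigmas. The authors deposited FPKM in a column for each library, per the file headers. The submitters' processing notes name TAIR10 as build and the tools TopHat2 2.0.14 and Cufflinks 2.2.1; their parameters, the annotation release and any later scaling were not given in the sources used here. Depth is not given with FPKM. In transcripts of at least 3 kb the lowest peak of FPKM times length put 1 fragment at 0.134 FPKM kb in WT and 0.248 in drop, and fragment numbers are deposited FPKM times the longest annotated length over that value. They are approximate, and intervals assume them. The peaks rest on 23 genes in WT and 35 in drop. This step was tested on simulated Poisson counts divided by the same lengths, with no PCR copies and no uncertainty of length. That test does not check the fragment numbers themselves.

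Ratios, scalings (drop multiplied by 1 factor, or quantile normalization) and intervals used Python 3.11.15, NumPy 2.4.6, pandas 2.3.3 and SciPy 1.17.1, and coding sequences were aligned with Biopython 1.88. The size rule was 2-fold with 1 added to each FPKM, for genes reaching 10 FPKM in either library (lists: 1 FPKM). Members and lists were chosen with earlier results of these data known. Named genes are the members, the lists, markers, extensin-described genes above 10 FPKM or named after their values were seen, and the 3 nearest named genes of each member. Sequences, lengths and symbols come from RefSeq TAIR10.1, whose nuclear chromosomes carry the TAIR10 sequence; 32810 of 33557 identifiers matched. RefSeq gives a product but no symbol for LRX4 to LRX11, BUPS1, BUPS2, MRI, RBOHH, RBOHJ, HPAT1 to HPAT3, EXAD and SERGT1, whose names come from the lists. Proteins were not analysed here.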

Additional observations from a re-analysis of the deposited data

How the results depend on the processing

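No paired analysis was possible because WT and drop have 1 library each. Pseudocounts of 0.1 and 10 moved the members' ratios within their counting intervals. The log2 ratios of LRX8, LRX9, LRX10, LRX11 and their sum, 2.19, 2.13, 1.87, 2.37 and 2.16 as deposited, were 0.70, 0.64, 0.38, 0.88 and 0.66 at equal sums. Scaled to a median ratio of 1 they were 1.09, 1.03, 0.77, 1.27 and 1.05, and by quantiles 0.94, 0.99, 0.69, 1.20 and 0.96. Setting sums equal after leaving out the 50 highest and the organelle genes gave 1.08, 1.02, 0.76, 1.26 and 1.05. Members 2-fold higher numbered 4 as deposited, 0 at equal sums, 3 at a median ratio of 1 and 1 after quantile normalization. At 4-fold as deposited there were 3, and the share of all genes past 4-fold was not counted. Over all genes the deposited count of 1650 became 322 with equal sums, 579 with a median ratio of 1, 571 without the 50 highest, and 2605 with at least 1 FPKM or no filter. By estimated fragments instead of FPKM, shares in WT were 34.2% for LRX8, 22.1% for LRX9 and 20.4% for LRX10, and in drop 34.9%, 21.6% and 16.7%, since longer transcripts give more fragments. The RALF pathway median of 1.94 was 0.47, 0.85, 0.98 and 0.85 under those scalings in turn and 1.83 with a pseudocount of 10. The extensin modification median of -0.46 was -0.86, -0.80, -0.16 and -0.80, with -0.090 at a pseudocount of 10 and 0.75 over the 1 gene with at least 10 FPKM. These shifts are set by the scaling, the pseudocount or the genes entering.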

Other observations

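Most other genes with the word extensin in their RefSeq description were listed at 0 in both libraries, and few reached 10 FPKM. Of all 33557 genes, 15150 were above 0 in WT and 12942 in drop, and the share at 0 in both was not counted. Of 27 such genes beside the LRX genes and the Ole e 1 family, 19 were listed at 0 in both libraries and 5 were measured. AT5G59170, a proline-rich extensin-like gene, was at 49.9 FPKM in WT against 223 in drop, a fold of 4.47 that is close to the 4.46 of the summed LRX genes. PERK4, a proline-rich extensin-like receptor kinase gene, was at 44.8 and 149.9 FPKM, a fold of 3.35. The other 3 measured genes were below 10 FPKM and are named after their values were seen. AT3G49270 was at 2.41 and 8.14 FPKM, EXT4 at 2.24 and 0.295, and PERK1 at 1.31 and 0.931.

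Of 27 genes described as pollen Ole e 1 allergen and extensin family, 20 were listed at 0 in both libraries and 6 were measured. AT5G45880 was at 28765 FPKM in WT against 84939.5 in drop, AT4G18596 at 7388 and 24437, and AT1G29140 at 4566 and 14954, with folds of 2.95, 3.31 and 3.27. AT1G78040 was at 20.2 and 27.2 FPKM. The other 2 measured genes, named after their values were seen, were lower in drop, AT2G16630 at 9.45 and 0.461 FPKM and AT5G54855 at 5.41 and 2.21. The 4 members of this family above 10 FPKM thus had lower folds than each of LRX8 to LRX11, although this difference has no replicate behind it.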
